A study of Mus musculus with 8 samples.

Results

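Gene expression was compared between glomerular endothelium and podocytes sorted from wild-type mouse kidney. The comparison took 4 of the 8 libraries of the series: both libraries of wild-type endothelium and both libraries of wild-type podocytes. Genotype was EMCN+/+ in all 4, which means that the sialomucin endomucin, deleted in the remaining 4 libraries (EMCN-/-, 2 of endothelium and 2 of podocytes), was intact. Cells were separated from kidney by fluorescence-activated cell sorting and polyadenylated RNA was sequenced. Strain, age, sex, number of animals and the markers used for the sort were not given in the sources used here. Libraries carried the replicate numbers 2 and 3, and nothing in the labels says that these were separate animals, so p-values measure the spread between these libraries, which may be technical. Of 17326 genes whose line held 8 counts, zeros included, 16477 passed the low-count filter and were tested, and the knockout libraries entered the filter, the scaling and the estimate of spread. Below, 2 values joined by "and" are replicates 2 and 3 of a group, as library-scaled counts per 1000000 (CPM).

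The glomerulus is the filter of the kidney. Its capillaries are lined by a fenestrated endothelium that depends on vascular endothelial growth factor (VEGF) from the podocytes across the shared basement membrane. Podocytes are epithelial cells that wrap the capillaries with interlocking foot processes, joined by the slit diaphragm and braced by actin. Each cell type is known to be held in its state by its own transcription factors, ETS and SOX proteins in endothelium and WT1 and TCF21 in podocytes.

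The markers chosen for the label check lay on the side of their labels. Pecam1 (Entrez 18613), an adhesion molecule of endothelial contacts, stood at 1014 and 769 CPM in endothelium and 45.8 and 30.2 CPM in podocytes. For Kdr, the main VEGF receptor (Entrez 16542), the values were 1673 and 1295 CPM in endothelium and 74.1 and 52.1 CPM in podocytes. Cdh5 (Entrez 12562), the cadherin of endothelial junctions, had fewer reads, with 49.3 and 43.1 CPM in endothelium and 4.796 and 3.27 CPM in podocytes. In each of these the endothelial libraries lay above the podocyte libraries, with no overlap. Synpo (Entrez 104027), an actin-associated protein of foot processes, stood at 333 and 137 CPM in endothelium and 4773 and 1904 CPM in podocytes. Wt1 (Entrez 22431), a zinc-finger transcription factor of podocytes, stood at 55.2 and 26.2 CPM in endothelium and 565 and 421 CPM in podocytes, a log2 fold change of −3.60 (SE 0.39, edgeR adjusted p 0.000211). Fold changes throughout are endothelium over podocytes, so negative values mean higher in podocytes. Leaving out endothelium replicate 2 moved Wt1 to −4.23 and Synpo, with −3.83 from all libraries, to −4.61, and leaving out podocyte replicate 2 moved Synpo to −3.00.

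Neither sorted population was free of the other's transcripts. Of the 21 endothelial identity genes higher in endothelium, the median gene reached 6.51% of its endothelial level in podocyte replicate 2 and 4.51% in podocyte replicate 3. Of the 25 podocyte identity genes, the median gene reached 16.9% of its podocyte level in endothelium replicate 2 and 10.6% in endothelium replicate 3. Endothelium replicate 2 held more of 21 of these 25 podocyte genes than replicate 3 did, and podocyte replicate 2 held more than podocyte replicate 3 for 25 of 25. Tdrd5, a Tudor-domain protein, differed most between them as a ratio, with 79.1 and 10.6 CPM in endothelium against 601 and 530.2 in podocytes. The summed level of the podocyte list was 5740 and 3300 CPM in endothelium against 38800 and 27100 in podocytes. That of the endothelial list was 1180 and 899 CPM in podocytes against 13100 and 11400 in endothelium. The endothelial sums take in all 22 tested members. Among them is Cldn5, which was higher in podocytes (log2 fold change −1.55) and held a sizeable part of the podocyte values. Of the 21 and 25 genes, 0 were without reads in the opposite cell type. The part of these reads in the fold changes below was not tested. In bulk RNA, fewer cells of a type and less RNA per cell cannot be told apart. Libraries held between 12378716 and 17386042 counts on the readable lines, and the mitochondrial share was highest in endothelium replicate 3 (26.16%, against 12.22 to 16.88% in the other 3).

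Over all genes, 8.99% differed between the cell types at an adjusted p under 0.05 from edgeR's quasi-likelihood test, 4.26% higher in endothelium and 4.73% higher in podocytes. The endothelial side held the larger fold changes. Among called genes, a difference of at least 16-fold was seen for 104 genes higher in endothelium and 24 higher in podocytes, and at least 32-fold for 21 and 10. The median size among called genes was 2.36 log2 units on the endothelial side and 1.80 on the podocyte side, and the smallest called difference was 0.71. Both endothelial libraries lay above both podocyte libraries for 21.2% of all genes, and the reverse held for 25.7%. Against 1481 calls with all libraries, 922 were made without endothelium replicate 3 and 769 without podocyte replicate 2.

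In each direction the 12 called genes of largest fold change were taken, with at least 20 CPM in the higher group. The libraries of the groups also had to lie apart, with no overlap. Cytl1, a small secreted cytokine-like protein, led the endothelial side with 23.3 and 58.6 CPM in endothelium and 0.259 and 0.0726 CPM in podocytes, where the podocyte libraries held 4 and 1 counts. Pi16 (a peptidase inhibitor), Gpihbp1 (the carrier of lipoprotein lipase across capillary endothelium) and Egfl7 (a secreted factor of vessels) were also in the group. Pi16 stood at 1168 and 1183 CPM in endothelium and 38.95 and 19.6 CPM in podocytes (log2 fold change 5.33, SE 0.37, edgeR adjusted p 3.6e-05). Gpihbp1 stood at 143 and 131 CPM in endothelium and 5.44 and 1.74 CPM in podocytes, and Egfl7 at 1561 and 1709.9 CPM in endothelium and 61.1 and 35.6 CPM in podocytes. A protease and a protease inhibitor stood near them. Klk8, a kallikrein-family serine protease, had 36.2 and 54.1 CPM in endothelium and 0.972 and 1.02 CPM in podocytes. Ctla2a, an inhibitor of cathepsin-type cysteine proteases, had 389 and 524 CPM in endothelium and 16.5 and 6.03 CPM in podocytes. The other members of the leading 12 were Ushbp1, Emcn, Gata5, Cd300lg, Dhh and Tie1, with log2 fold changes from 4.91 to 5.32. Emcn itself stood at 1972 and 1828 CPM in endothelium and 74.1 and 35.9 CPM in podocytes. Dhh, desert hedgehog, a secreted ligand of the hedgehog pathway, stood at 35.6 and 33.4 CPM in endothelium and 1.49 and 0.726 CPM in podocytes. Without podocyte replicate 2, Pi16, Emcn, Gata5, Cd300lg and Dhh had log2 fold changes of 5.92, 5.74, 5.76, 5.64 and 5.56.

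Lypd2, a member of the Ly6 family, led the podocyte side and had 4 and 0 counts in endothelium and 18.02 and 22.1 CPM in podocytes. Dkk3, a secreted glycoprotein of the Dickkopf family, stood at 5.17 and 1.81 CPM in endothelium and 429.6 and 261 CPM in podocytes (log2 fold change −6.63, SE 0.77, edgeR adjusted p 0.00033). Complement C3 stood at 4.03 and 0.796 CPM in endothelium and 166 and 87.04 CPM in podocytes. That both podocyte libraries lay above both endothelial libraries was a condition of the choice. Fgl2, a fibrinogen-like protein, had 16.7 and 3.69 CPM in endothelium and 336 and 274 CPM in podocytes. Rspo1, an R-spondin that amplifies Wnt signals, had 1.52 and 1.66 CPM in endothelium and 57.6 and 25.99 CPM in podocytes. Ogn, the small leucine-rich proteoglycan osteoglycin, had 2.13 and 2.24 CPM in endothelium and 64.3 and 43.7 CPM in podocytes. For Igfbp2, a binding protein of insulin-like growth factors, the endothelial libraries lay far apart, with 3.95 and 0.0724 CPM in endothelium and 77.3 and 31.4 CPM in podocytes. Osr2, a zinc-finger transcription factor, stood at 1.52 and 2.099 CPM in endothelium and 62.9 and 55.7 CPM in podocytes. Lsp1, Kirrel2, Ccdc3 and Cldn1 completed the group, with log2 fold changes from −5.25 to −4.61. Ccdc3 was uneven between the podocyte libraries, at 72.5 and 10.7 CPM, against 1.37 and 1.95 in endothelium. Its call was lost without podocyte replicate 2, where the log2 fold change was −2.66, and without either endothelial library, and that of Igfbp2 was lost without podocyte replicate 2. Without endothelium replicate 2, Dkk3 stood at −7.57, Lsp1 at −5.86 and Cldn1 at −6.63, and Cldn1 stood at −3.80 without endothelium replicate 3.

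Of the 25 genes of the endothelial identity list, 22 could be tested, and 21 of these had higher levels in endothelium and 1 in podocytes, where 4.26% and 4.73% of all genes did. The median log2 fold change of the list was 4.11, against −0.01 over all genes. The list kept 21 genes higher in endothelium in every fit that left out 1 wild-type library. Tie1 and Tek are the receptor tyrosine kinases of the angiopoietin system. Tie1 stood at 615 and 515 CPM in endothelium and 19.6 and 17.9 CPM in podocytes, and Tek at 769.9 and 585 CPM in endothelium and 37.7 and 37.9 CPM in podocytes. Icam2, an adhesion molecule for leukocytes, had the smallest p of the list, at 419.6 and 424 CPM in endothelium and 27.5 and 19.02 CPM in podocytes (log2 fold change 4.18, SE 0.27, edgeR adjusted p 3.1e-05). Robo4, an endothelial guidance receptor that steadies vessels, had 149 and 122 CPM in endothelium and 5.83 and 4.65 CPM in podocytes. Eng (endoglin, a co-receptor for bone morphogenetic proteins) and Cd34 (a sialomucin) were less restricted. Eng stood at 1093 and 821 CPM in endothelium and 136 and 106 CPM in podocytes, and Cd34 at 739 and 639 CPM in endothelium and 111 and 77.2 CPM in podocytes. Vwf, the platelet-binding clotting protein, had the smallest difference of the 21, with 49.3 and 46.8 CPM in endothelium and 9.203 and 14.7 CPM in podocytes (log2 fold change 2.01, SE 0.34, edgeR adjusted p 0.0034).

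Cldn5 was the exception. It encodes claudin-5, a tight junction protein that marks endothelium in many organs and has also been described in podocytes. Its level was 109 and 126 CPM in endothelium and 404 and 284 CPM in podocytes, higher in both podocyte libraries (log2 fold change −1.55, SE 0.34, edgeR adjusted p 0.0141). In the knockout libraries the difference had the same direction, at −0.66. The call was lost without endothelium replicate 2, endothelium replicate 3 or podocyte replicate 2, with edgeR adjusted p-values of 0.101, 0.0723 and 0.127.

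**Figure D1:**
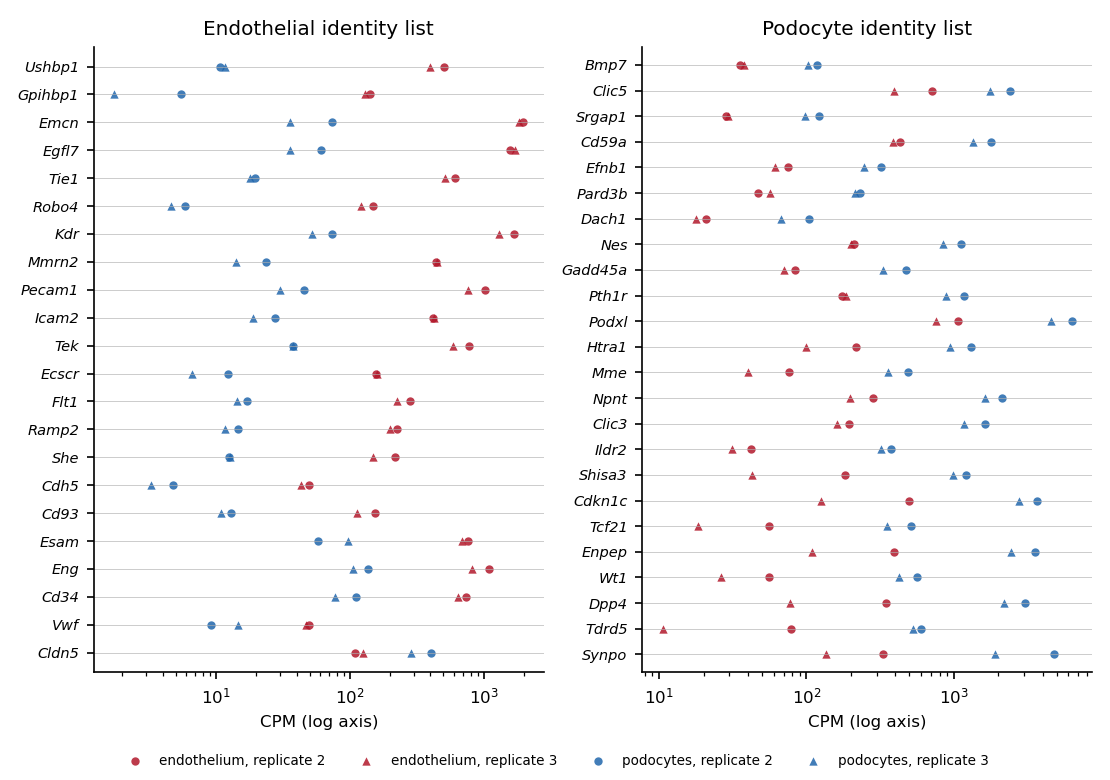
CPM on a log axis in each of the 4 wild-type libraries for the tested genes of the endothelial (left) and podocyte (right) identity lists, ordered by fold change; red is endothelium, blue podocytes, circles replicate 2 and triangles replicate 3. Endothelial symbols lie to the right of podocyte symbols for 21 of 22 genes on the left, with Cldn5 at the bottom reversed, and podocyte symbols lie to the right for all 24 genes plotted on the right, 1 tested gene being left out.

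Genes that set glomerular capillaries apart from other renal vessels were also higher in the endothelial libraries, for 11 of 15 tested (median log2 fold change 3.10), and 0 were higher in podocytes, beside 4.26% and 4.73% of all genes. Ehd3, a membrane-trafficking ATPase that in kidney marks glomerular endothelium, stood at 3224 and 2815 CPM in endothelium and 307 and 216 CPM in podocytes (log2 fold change 3.53, SE 0.34, edgeR adjusted p 0.000124). Gata5, a zinc-finger transcription factor, stood at 211 and 165 CPM in endothelium and 7.65 and 3.48 CPM in podocytes. Sost, an inhibitor of Wnt signals, was uneven in both groups, at 129 and 70.3 CPM in endothelium and 11.1 and 1.52 CPM in podocytes. Tspan7, a tetraspanin, and Fbln2, a matrix fibulin, had log2 fold changes of 3.98 and 4.27. Nostrin, which regulates the traffic of endothelial nitric oxide synthase, stood at 124 and 149 CPM in endothelium and 15.7 and 16.8 CPM in podocytes. Igfbp5 stood at 894 and 972 CPM in endothelium and 136 and 149.5 CPM in podocytes, a smaller difference. Lpl and Mapt of the list did not pass, and each had more CPM in both podocyte libraries. Lpl (lipoprotein lipase) had 459.6 and 519.7 CPM in endothelium and 752 and 650.4 CPM in podocytes, and Mapt (the microtubule protein tau) had 142 and 179 CPM in endothelium and 383 and 325 CPM in podocytes.

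Markers of other vessel types were present as well. Arterial genes passed in endothelium for 8 of 12 tested and in podocytes for 1. Venous, lymphatic and peritubular genes passed in endothelium for 2 of 9 tested and in podocytes for 0. Over all genes the shares were 4.26% and 4.73%. Fbln5, an elastic-fibre protein, stood at 761 and 649.8 CPM in endothelium and 85.8 and 71.9 CPM in podocytes, and Sox17, an arterial transcription factor, at 446 and 249.6 CPM in endothelium and 19.5 and 11.98 CPM in podocytes. Eln, elastin of arterial walls, had 46.7 and 48.1 CPM in endothelium and 4.93 and 8.86 CPM in podocytes. Efnb2, the arterial ephrin ligand, had 99.8 and 102 CPM in endothelium and 24.04 and 12.6 CPM in podocytes, and Ephb4, its venous receptor, had 220.1 and 159 CPM in endothelium and 50.1 and 50.2 CPM in podocytes. The log2 fold changes of that pair were 2.46 and 1.92, both called. Flt4, a VEGF receptor best known from lymphatic vessels, was higher too, with 58.7 and 43.4 CPM in endothelium and 6.68 and 1.89 CPM in podocytes. Prox1, the defining transcription factor of lymphatic endothelium, did not pass, at 7.902 and 8.69 CPM in endothelium and 6.68 and 6.75 CPM in podocytes. Plvap, the diaphragm protein of fenestrated capillaries, which mature glomerular endothelium largely lacks, had 368 and 215 CPM in endothelium and 128 and 102 CPM in podocytes and did not pass (edgeR adjusted p 0.479). The call of Ephb4 was lost without podocyte replicate 2, and that of Sox17 without either podocyte library.

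Of 25 endothelial transcription factors tested, 19 passed with more in endothelium and 1 with more in podocytes (median log2 fold change 2.74), beside 4.26% and 4.73% of all genes. The SOX genes of subgroup F, Sox7, Sox17 and Sox18, were all higher in endothelium. Sox18 stood at 341 and 261 CPM in endothelium and 12.8 and 7.405 CPM in podocytes (log2 fold change 4.89, SE 0.33, edgeR adjusted p 3.6e-05). Sox7 had 151 and 138 CPM in endothelium and 6.55 and 3.85 CPM in podocytes. Lmo2, a LIM-domain partner of TAL1 and GATA factors, had 132 and 103 CPM in endothelium and 4.41 and 3.56 CPM in podocytes. Of the ETS factors, which bind the promoters of many endothelial genes, Fli1 stood at 129.6 and 124 CPM in endothelium and 18.99 and 13.5 CPM in podocytes. Erg, another ETS factor, had fewer reads, with 10.8 and 8.32 CPM in endothelium and 0.778 and 2.32 CPM in podocytes. Etv6, an ETS-family repressor, was the 1 gene of the list higher in podocytes, at 30.01 and 26.4 CPM in endothelium and 75.8 and 58.1 CPM in podocytes (log2 fold change −1.25, SE 0.25, edgeR adjusted p 0.00833). That call was lost without endothelium replicate 3 and without podocyte replicate 2. Hhex and Hlx, homeobox genes, had log2 fold changes of 4.67 and 4.35. Tal1, a bHLH factor of blood and vessel progenitors, had 6.31 and 6.66 CPM in endothelium, and the podocyte libraries held 0 and 3 counts of it. The call of Erg was lost without endothelium replicate 2, endothelium replicate 3 or podocyte replicate 2. Klf4, a flow-responsive factor, stood at 65.9 and 97.3 CPM in endothelium and 17.95 and 15.97 CPM in podocytes, while Klf2, another one, did not pass, with 87.99 and 88.6 CPM in endothelium and 75.96 and 17.6 CPM in podocytes, the podocyte libraries being far apart.

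Podocyte identity genes were higher in podocytes for all 25 genes tested, out of 34 on the list, with a median log2 fold change of −2.87, against −0.01 over all genes, of which 4.73% were called in podocytes. The count was 23 without endothelium replicate 3 and 23 without podocyte replicate 2. The 9 other members, among them Nphs1, Ptpro, Magi2, Plce1, Thsd7a, Sema3g, Rhpn1 and Col4a3, were on lines with fewer than 8 counts and were not analysed here. Podxl, podocalyxin, the charged sialomucin of foot processes, stood at 1062 and 753 CPM in endothelium and 6298 and 4578 CPM in podocytes. Members of the list include 3 peptidases of the cell surface. Enpep, aminopeptidase A, had 393 and 109 CPM in endothelium and 3574 and 2464 CPM in podocytes. Dpp4, dipeptidyl peptidase 4, had 346 and 77.7 CPM in endothelium and 3052 and 2175 CPM in podocytes, and Mme, neprilysin, had 75.7 and 40.1 CPM in endothelium and 488 and 358 CPM in podocytes. For Enpep and Dpp4 the endothelial libraries differed between themselves by a larger ratio than the podocyte libraries did. Cdkn1c, an imprinted inhibitor of the cell cycle that marks postmitotic podocytes, stood at 496 and 125 CPM in endothelium and 3696 and 2770.1 CPM in podocytes (log2 fold change −3.38, SE 0.75, edgeR adjusted p 0.0163). Pth1r, the receptor of parathyroid hormone, had 174 and 185 CPM in endothelium and 1166 and 886 CPM in podocytes. Ildr2, a membrane protein of the angulin family, had 41.9 and 31.4 CPM in endothelium and 373 and 319.9 CPM in podocytes. The Cdkn1c call was lost without endothelium replicate 3 (log2 fold change −2.71, edgeR adjusted p 0.101) and without podocyte replicate 2 (edgeR adjusted p 0.0812), and without endothelium replicate 2 the fold change was −4.70. Bmp7, a bone morphogenetic protein, had the smallest difference of the list, at 35.2 and 37.4 CPM in endothelium and 117 and 103 CPM in podocytes.

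Components of the slit diaphragm and its polarity complexes followed, with 12 of 16 tested genes higher in podocytes and 1 in endothelium (median log2 fold change −1.87), beside 4.73% and 4.26% of all genes. The count fell to 9 without either endothelial library and to 7 without podocyte replicate 2. Kirrel2 and Kirrel encode immunoglobulin-like proteins that bind nephrin. Kirrel2 stood at 1.14 and 0 CPM in endothelium and 18.3 and 23.2 CPM in podocytes. Kirrel stood at 23.6 and 11.1 CPM in endothelium and 169.9 and 127 CPM in podocytes. Efnb1, an ephrin ligand found at the slit diaphragm, had 74.6 and 61.5 CPM in endothelium and 321 and 245 CPM in podocytes. Crb2, an apical polarity protein, had 45.4 and 8.97 CPM in endothelium and 490.0 and 322 CPM in podocytes (log2 fold change −3.90, SE 0.64, edgeR adjusted p 0.00293). Fat1, a giant protocadherin, had 59.8 and 42.1 CPM in endothelium and 315 and 245 CPM in podocytes. Cd2ap, the adaptor that ties the slit diaphragm to actin, was less restricted, at 80.8 and 76.1 CPM in endothelium and 244 and 201 CPM in podocytes. The paired adaptors Nck1 and Nck2, which link phosphorylated nephrin to actin assembly, were called on opposite sides. Nck2 stood at 60.3 and 22.1 CPM in endothelium and 231 and 172 CPM in podocytes, while Nck1 was higher in endothelium, at 146 and 127 CPM in endothelium and 67.3 and 68.3 CPM in podocytes. The log2 fold change of Nck2 was −2.29 (SE 0.42, edgeR adjusted p 0.00568) and that of Nck1 1.01 (SE 0.23, edgeR adjusted p 0.018). Leaving out any 1 of the 4 wild-type libraries ended the Nck1 call (edgeR adjusted p 0.0515 to 0.171), and leaving out podocyte replicate 2 ended the Nck2 call (edgeR adjusted p 0.0552). Without endothelium replicate 2, Nck2 stood at −3.19 and Crb2 at −5.50, and without endothelium replicate 3 Crb2 stood at −3.16.

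Of 26 actin genes of podocytes tested, 11 were higher in podocytes and 1 in endothelium, and 14 did not pass (median log2 fold change −0.81), where all genes gave 4.73% and 4.26% called. Without podocyte replicate 2 the count in podocytes was 7. Arhgap24, which turns off a small GTPase, stood at 395 and 381 CPM in endothelium and 1959 and 1467 CPM in podocytes (log2 fold change −2.14, SE 0.26, edgeR adjusted p 0.000461). Nes, an intermediate filament protein, had 209.8 and 202 CPM in endothelium and 1118 and 849 CPM in podocytes, and Daam2, a formin, had 12.3 and 10.8 CPM in endothelium and 73.5 and 62.8 CPM in podocytes. Actn4, an actin crosslinker, was called with a smaller difference, at 1561 and 1395 CPM in endothelium and 3599 and 2922 CPM in podocytes, and its call was lost without either endothelial library or podocyte replicate 2. Rhoa, a GTPase that drives stress fibres, had 610.2 and 524 CPM in endothelium and 528 and 415 CPM in podocytes and did not pass (log2 fold change 0.27). Kank proteins, which tie focal adhesions to microtubules, differed from one another. Kank1 stood at 86.3 and 66.1 CPM in endothelium and 460.2 and 345 CPM in podocytes, and Kank4, the 1 gene higher in endothelium, at 42.02 and 35.8 CPM in endothelium and 10.3 and 8.49 CPM in podocytes (log2 fold changes −2.40 and 2.05, edgeR adjusted p 0.000239 and 0.00156). Kank2 did not pass, with 40.96 and 25.8 CPM in endothelium and 68.6 and 62.4 CPM in podocytes.

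Of 24 podocyte transcription factors, all of them tested, 12 were higher in podocytes and 0 in endothelium (median log2 fold change −1.97), beside 4.73% and 4.26% of all genes. Foxc2, a forkhead factor, stood at 9.95 and 4.41 CPM in endothelium and 105 and 73.2 CPM in podocytes (log2 fold change −3.63, SE 0.40, edgeR adjusted p 0.000254). Tcf21, a bHLH factor, had 55.6 and 18.4 CPM in endothelium and 513 and 351 CPM in podocytes. Both podocyte libraries lay far above both endothelial libraries for these genes. Without endothelium replicate 2 the log2 fold change of Foxc2 was −4.33. Hoxc8, a homeobox gene, had 15.04 and 9.26 CPM in endothelium and 133 and 97.9 CPM in podocytes, and Zbtb7c, a zinc-finger gene, had 15.3 and 17.4 CPM in endothelium and 106 and 69.5 CPM in podocytes. Creb3l2, a transcription factor of the secretory pathway, had 42.2 and 32.4 CPM in endothelium and 154 and 153 CPM in podocytes. Lmx1b, the homeobox gene mutated in nail-patella syndrome, had few reads, at 0.608 and 0.145 CPM in endothelium and 3.76 and 2.32 CPM in podocytes, and did not pass (edgeR adjusted p 0.0541). Zhx1, a broadly expressed zinc-finger homeobox gene, did not pass either, at 141 and 129 CPM in endothelium and 167 and 138 CPM in podocytes.

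**Figure D2:**
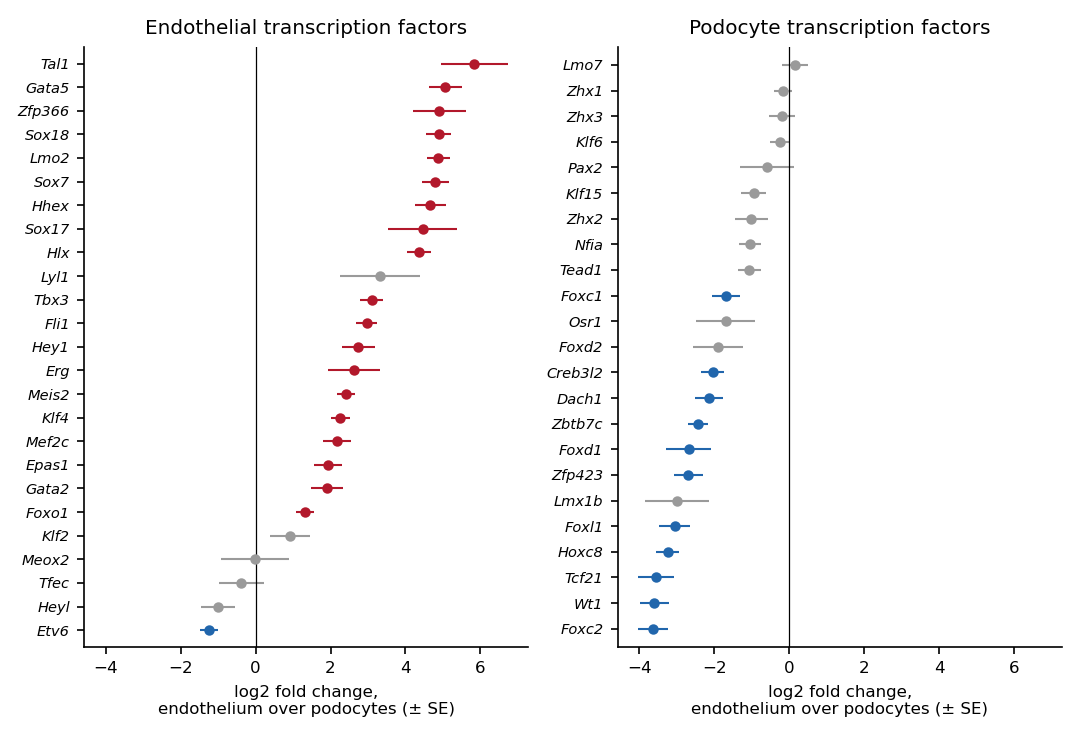
Log2 fold change of endothelium over podocytes in wild type (points, with SE as bars, 2 libraries a group) for the tested endothelial (left) and podocyte (right) transcription factors. Red and blue passed an edgeR adjusted p under 0.05 and grey did not; 19 of 25 genes on the left are red, Etv6 is blue, and 11 of the 23 genes plotted on the right are blue with none red, 1 tested gene being left out there.

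Basement membrane genes were covered in part, since 18 of 34 list members, among them every collagen IV chain and most laminin chains, were on short lines and were not analysed here. Of 16 tested, 5 were higher in podocytes and 2 in endothelium (median log2 fold change −0.43), beside 4.73% and 4.26% of all genes. The counts were 2 and 0 without podocyte replicate 2, 2 and 1 without endothelium replicate 3, 4 and 1 without endothelium replicate 2, and 4 and 0 without podocyte replicate 3. Npnt, nephronectin, a matrix ligand of integrin α8β1, stood at 284 and 198 CPM in endothelium and 2117 and 1627 CPM in podocytes (log2 fold change −2.96, SE 0.34, edgeR adjusted p 0.000289). Heparan sulfate proteoglycans of the membrane differed in side. Agrn, agrin, the main one of the mature glomerular membrane, was higher in podocytes, at 84.6 and 66.6 CPM in endothelium and 292 and 208 CPM in podocytes. Hspg2, perlecan, was higher in endothelium, at 50.2 and 46.4 CPM in endothelium and 17.8 and 16.8 CPM in podocytes. Agrn had a log2 fold change of −1.72 (SE 0.27, edgeR adjusted p 0.00213). Hspg2 had one of 1.48 (SE 0.27, edgeR adjusted p 0.00487), and its call was lost without either podocyte library. Tinagl1, a matrix protein, was the other gene higher in endothelium, with 510.2 and 522 CPM in endothelium and 189 and 177 CPM in podocytes, a call that did not hold without any 1 wild-type library. Crim1, a membrane-bound regulator of growth factors, had 38.8 and 35.9 CPM in endothelium and 108 and 95.97 CPM in podocytes. Frem1, a matrix protein of the Fraser complex, had 12.8 and 5.28 CPM in endothelium and 25.3 and 25.6 CPM in podocytes. Both were called in podocytes, but neither was without endothelium replicate 3 or podocyte replicate 2, nor Frem1 without podocyte replicate 3.

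Integrins and their partners attach both cells to that membrane, and of 20 tested 8 passed in podocytes and 4 in endothelium, beside 4.73% and 4.26% of all genes. Podocyte calls numbered 5 without endothelium replicate 3 and 5 without podocyte replicate 2, and endothelial calls 2 without podocyte replicate 3. Itga3, the α3 chain that pairs with β1 to bind laminin in podocytes, stood at 267 and 200.5 CPM in endothelium and 1103 and 877 CPM in podocytes (log2 fold change −2.08, SE 0.27, edgeR adjusted p 0.00073). Dag1, dystroglycan, another laminin receptor, had 255 and 143 CPM in endothelium and 1654 and 1342 CPM in podocytes. Itgav, the αv chain, had 122 and 68.7 CPM in endothelium and 504 and 419 CPM in podocytes. Its possible β partners fell on different sides. Itgb8 was higher in podocytes, at 5.01 and 5.79 CPM in endothelium and 59.8 and 51.9 CPM in podocytes, and Itgb5 was too, at 53.6 and 87.5 CPM in endothelium and 277 and 204 CPM in podocytes. Itgb3 was higher in endothelium, at 45.8 and 33.1 CPM in endothelium and 3.4997 and 5.01 CPM in podocytes. Itgb8 had a log2 fold change of −3.37, Itgb5 of −1.77 and Itgb3 of 3.21 (edgeR adjusted p 0.000154, 0.0371 and 0.000173). The Itgb5 call did not hold without any 1 wild-type library. Itgb4, the chain of hemidesmosomes, was called in endothelium at 33.2 and 27.1 CPM in endothelium and 7.52 and 6.098 CPM in podocytes. Itga5, the fibronectin receptor chain, and Itga6, a laminin receptor chain, were called there too (log2 fold changes 1.53 and 1.26), but Itga5 was not without endothelium replicate 2 or podocyte replicate 3, nor Itga6 without podocyte replicate 3. Itgb1, the chain common to many pairs, had 1453 and 986 CPM in endothelium and 2536 and 1881 CPM in podocytes and did not pass.

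Signals between the cells were followed from ligand to receptor. Among 36 tested ligands, 9 passed in endothelium and 6 in podocytes (median log2 fold change 0.14). Among 45 tested receptors, 20 passed in endothelium and 9 in podocytes (median 0.94). For both lists the shares over all genes were 4.26% in endothelium and 4.73% in podocytes. Vegfa, the growth factor that podocytes supply to the capillary, stood at 167 and 141 CPM in endothelium and 1409.6 and 1012 CPM in podocytes (log2 fold change −2.97, SE 0.27, edgeR adjusted p 0.000103). Its receptors Kdr and Flt1 were called on the opposite side. Flt1 stood at 282 and 225 CPM in endothelium and 17.04 and 14.4 CPM in podocytes (log2 fold change 4.01, SE 0.39, edgeR adjusted p 0.000127). The co-receptor Nrp1 was shared more, at 2387 and 1833 CPM in endothelium and 625 and 504 CPM in podocytes. Vegfc, the ligand of Flt4, was higher in endothelium, with 37.2 and 34.2 CPM in endothelium and 6.87 and 5.52 CPM in podocytes. In the angiopoietin system the receptors were endothelial and neither ligand passed. Angpt1, the activating ligand, had 30.9 and 27.6 CPM in endothelium and 16.3 and 12.8 CPM in podocytes, and Angpt2, its context-dependent antagonist, had 66.5 and 46.7 CPM in endothelium and 161 and 136 CPM in podocytes.

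Sequence windows of Kdr, Flt1, Tek, Ehd3, Vegfa and Tcf21 are shown because these genes were among those that separated the cell types. Each window runs from 250 bases before to 50 bases after the RefSeq transcription start (build GRCm38.p6), 5′ to 3′ on the gene's strand. Capitals mark matches, on either strand, to 10 short motifs, which did not overlap in these windows.
Kdr (chr5:75978406-75978705, minus strand): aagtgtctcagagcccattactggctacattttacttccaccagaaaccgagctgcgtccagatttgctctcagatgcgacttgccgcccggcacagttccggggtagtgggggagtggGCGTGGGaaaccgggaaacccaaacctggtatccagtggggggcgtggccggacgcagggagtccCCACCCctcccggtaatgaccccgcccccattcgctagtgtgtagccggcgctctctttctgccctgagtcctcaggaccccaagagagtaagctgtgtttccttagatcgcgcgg
Flt1 (chr5:147725962-147726261, minus strand): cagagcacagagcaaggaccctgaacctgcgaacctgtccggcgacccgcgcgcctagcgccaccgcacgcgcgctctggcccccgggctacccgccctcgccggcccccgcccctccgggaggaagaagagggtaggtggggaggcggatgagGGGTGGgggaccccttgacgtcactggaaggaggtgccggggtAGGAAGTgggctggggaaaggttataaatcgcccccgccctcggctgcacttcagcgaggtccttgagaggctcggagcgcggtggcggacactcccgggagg
Tek (chr4:94739039-94739338, plus strand): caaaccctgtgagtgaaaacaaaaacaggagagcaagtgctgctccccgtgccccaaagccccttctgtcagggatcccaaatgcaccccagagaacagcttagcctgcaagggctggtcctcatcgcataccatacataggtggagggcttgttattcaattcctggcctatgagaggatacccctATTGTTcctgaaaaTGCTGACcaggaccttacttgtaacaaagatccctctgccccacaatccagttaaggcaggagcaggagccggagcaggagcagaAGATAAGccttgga
Ehd3 (chr17:73804591-73804890, plus strand): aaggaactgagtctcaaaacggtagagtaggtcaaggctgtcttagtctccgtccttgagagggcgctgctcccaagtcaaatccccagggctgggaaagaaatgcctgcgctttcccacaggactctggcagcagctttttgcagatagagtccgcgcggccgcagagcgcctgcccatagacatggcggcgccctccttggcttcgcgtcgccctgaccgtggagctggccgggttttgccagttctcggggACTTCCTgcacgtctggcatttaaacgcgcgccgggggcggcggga
Vegfa (chr17:46032328-46032627, minus strand, the first of 2 windows listed): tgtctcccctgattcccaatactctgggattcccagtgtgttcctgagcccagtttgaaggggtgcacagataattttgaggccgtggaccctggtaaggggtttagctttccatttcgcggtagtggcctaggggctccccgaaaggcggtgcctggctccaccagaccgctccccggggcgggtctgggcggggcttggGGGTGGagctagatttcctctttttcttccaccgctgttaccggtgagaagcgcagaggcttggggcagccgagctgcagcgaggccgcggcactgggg
Tcf21 (chr10:22820094-22820393, minus strand): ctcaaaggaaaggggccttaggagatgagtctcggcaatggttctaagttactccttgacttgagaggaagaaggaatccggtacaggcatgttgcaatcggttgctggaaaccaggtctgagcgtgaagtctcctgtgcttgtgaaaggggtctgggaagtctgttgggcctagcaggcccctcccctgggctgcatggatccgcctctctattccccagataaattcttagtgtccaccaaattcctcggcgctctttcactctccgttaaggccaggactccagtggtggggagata
The ETS motif AGGAAGT was in the Flt1 and Ehd3 windows. Tek held 1 match each to the SOX, MAF and GATA motifs. Kdr held 1 match each to the WT1 and KLF motifs, Flt1 and Vegfa each 1 to the KLF motif, and Tcf21 held 0 matches to any motif. The motifs searched were also counted, on both strands, in the windows of all 12063 tested genes that had one. The ETS motif AGGAAGT was found in 9.46% of these, and a further ETS motif, CCGGAAG, in 13.4%. The GATA motif AGATAAG was in 2.35%, the SOX motif AACAAT in 7.79%, and the forkhead motif TGTTTAC in 2.85%. The WT1 motif GCGTGGG was in 6.73%, the LMX1B homeodomain motif TAATTA in 3.74%, and the E-box CAGCTG of TCF21 in 15.8%. The KLF motif CCACCC was in 34.6% and the MAF motif TGCTGAC in 4.25%. A match is a string of letters and shows no binding. Only 73.2% of tested genes had a window, and shares were not compared between the genes of the 2 cell types.

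Chemokine, peptide and endothelin signals were followed in the same way. Cxcl12, a chemokine, was higher in podocytes, at 89.8 and 58.99 CPM in endothelium and 316 and 269.7 CPM in podocytes (log2 fold change −1.98, SE 0.29, edgeR adjusted p 0.00145). It belongs to the arterial list and was the member of that list on the podocyte side. Its scavenging receptor Ackr3 was also higher in podocytes, at 21.8 and 18.96 CPM in endothelium and 301 and 204 CPM in podocytes (log2 fold change −3.63, SE 0.33, edgeR adjusted p 9.3e-05). Its signalling receptor Cxcr4 was low in all 4 libraries, at 3.72 and 2.099 CPM in endothelium and 1.49 and 1.52 CPM in podocytes. Adm, adrenomedullin, a vasodilator peptide, was higher in podocytes, with 88.4 and 72.5 CPM in endothelium and 352 and 275 CPM in podocytes. The receptor for that peptide is Calcrl with Ramp2 or Ramp3, and all 3 genes were higher in endothelium. Calcrl stood at 384 and 205 CPM in endothelium and 17.04 and 21.5 CPM in podocytes. Ramp2 stood at 225 and 198 CPM in endothelium and 14.6 and 11.7 CPM in podocytes, and Ramp3 at 60.9 and 75.8 CPM in endothelium and 3.24 and 2.98 CPM in podocytes. Both groups were apart for each of the 3. Edn1, endothelin-1, was higher in endothelium, at 133 and 98.1 CPM in endothelium and 11.4 and 11.9 CPM in podocytes. Of its receptors Ednrb was higher in endothelium too, at 189 and 211 CPM in endothelium and 12.96 and 20.5 CPM in podocytes, and Ednra did not pass, at 8.28 and 6.01 CPM in endothelium and 8.68 and 13.9 CPM in podocytes.

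Of the Notch ligands, Dll4 was higher in endothelium, at 87.8 and 66.7 CPM in endothelium and 8.04 and 5.52 CPM in podocytes, and so was Jag2, at 30.01 and 29.96 CPM in endothelium and 2.14 and 1.89 CPM in podocytes. The Notch receptors were called on both sides. Notch1 had a log2 fold change of 1.93 and Notch4 of 2.59 (edgeR adjusted p 0.00616 and 0.0134), with more in endothelium. Without podocyte replicate 2 the Notch1 call was lost, and without endothelium replicate 2 or podocyte replicate 3 the Notch4 call (log2 fold change 1.88 and 2.15). Notch2 was higher in podocytes, at 24.8 and 20.6 CPM in endothelium and 85.8 and 69.3 CPM in podocytes (log2 fold change −1.77, SE 0.23, edgeR adjusted p 0.000746). Fibroblast growth factor receptors were also called on both sides. Fgfr1 was higher in podocytes, at 77.7 and 60.9 CPM in endothelium and 378 and 293 CPM in podocytes. Fgfr2 was too, at 75.8 and 43.6 CPM in endothelium and 262 and 242 CPM in podocytes. Fgfr3 was higher in endothelium, at 123 and 99.7 CPM in endothelium and 13.03 and 9.36 CPM in podocytes. Fgf1, a ligand of all of these receptors, was called in endothelium, with 447 and 402 CPM in endothelium and 122 and 145 CPM in podocytes, but not without podocyte replicate 2. Npr3 and Npr1 bind natriuretic peptides and were higher in podocytes. Npr3, the clearance receptor, had 67.7 and 34.1 CPM in endothelium and 565 and 435 CPM in podocytes, and Npr1, the guanylyl cyclase for atrial peptide, had 82.5 and 65.7 CPM in endothelium and 284 and 213 CPM in podocytes. S1pr1, a sphingosine-1-phosphate receptor that tightens endothelial junctions, was higher in endothelium, with 423 and 363 CPM in endothelium and 22.8 and 19.8 CPM in podocytes.

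**Figure D3:**
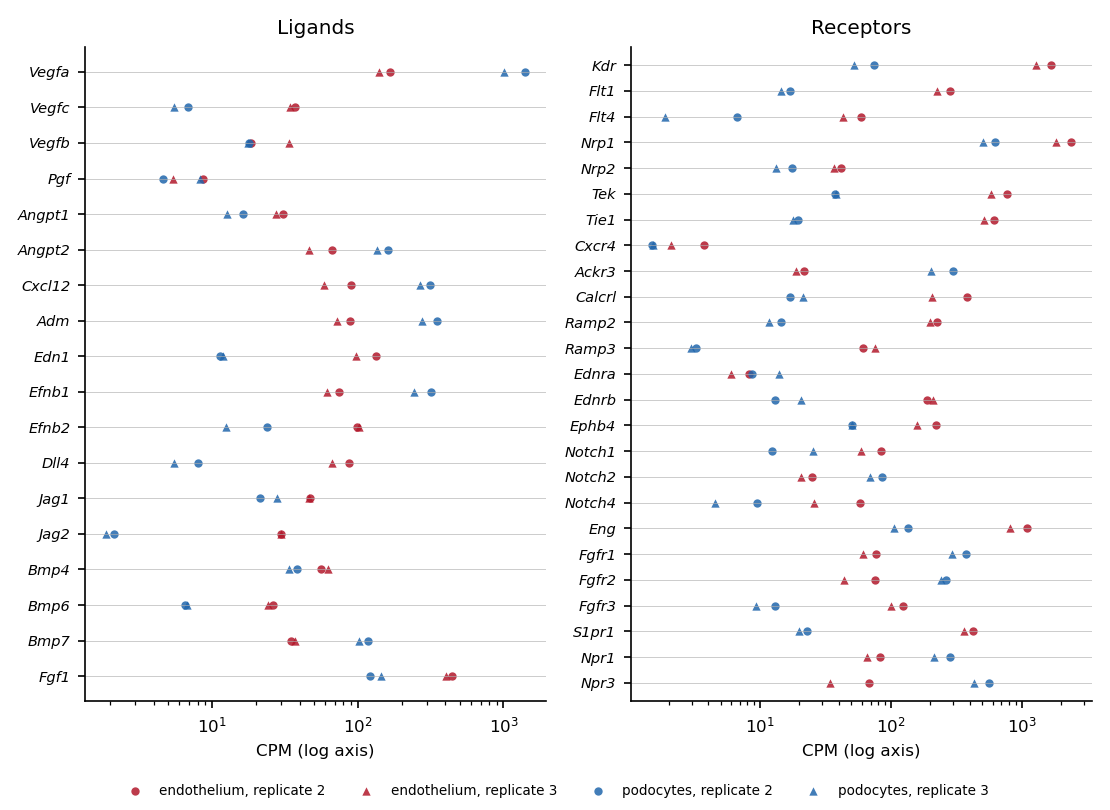
CPM on a log axis in each of the 4 wild-type libraries for 18 ligands (left) and 25 receptors (right); red is endothelium, blue podocytes, circles replicate 2 and triangles replicate 3. Vegfa, Cxcl12 and Adm lie to the right in podocytes, whereas Kdr, Flt1, Tek, Calcrl, Ramp2 and Ramp3 lie to the right in endothelium, and Ackr3, Notch2, Fgfr1, Fgfr2, Npr1 and Npr3 lie with podocytes.

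Markers of cells that the sort was not aimed at were measured in the same libraries. Distal tubule genes were abundant in both populations, and 0 of 9 tested passed, a count too small to set apart from the 8.99% of all genes. Their summed level was 7490 and 16600 CPM in endothelium and 6350 and 13200 CPM in podocytes, higher in replicate 3 of each, where each of the 9 genes was higher. Umod, uromodulin of the thick ascending limb, stood at 3716 and 9554 CPM in endothelium and 1734 and 6018 CPM in podocytes. Proximal tubule genes summed to 857 and 1760 CPM in endothelium and to 3290 and 5530 CPM in podocytes, and 0 of 9 passed. In the fit of only the 4 wild-type libraries 4 of the 9 passed, all higher in podocytes. Most of each proximal tubule sum came from Gpx3, a secreted peroxidase. It had 739 and 1564 CPM in endothelium and 3011 and 4658 CPM in podocytes. Parietal epithelial genes, from the layer continuous with podocytes, were higher in podocytes for 4 of 11, where 4.73% of all genes were. Those were Dkk3, Cldn1, Pax8 and Ncam1, of which Pax8, a kidney epithelial transcription factor, had 44.8 and 88.8 CPM in endothelium and 247 and 264 CPM in podocytes. Counts of 3 without either endothelial library, 2 without podocyte replicate 2 and 3 without podocyte replicate 3 were found. The Pax8 call was lost without endothelium replicate 2 or either podocyte library, and that of Ncam1, a neural cell adhesion molecule, without endothelium replicate 3 or podocyte replicate 2. Cldn1, a tight junction claudin, had 6.76 and 0.941 CPM in endothelium and 118 and 70.3 CPM in podocytes. The part of these cells in the podocyte side was not tested.

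Mural and mesangial genes gave 1 call among 8 tested, where 8.99% of all genes were called, and 2 without podocyte replicate 2. With only the 4 wild-type libraries, or with the replicate number as a block, 3 were called. Tagln, a smooth muscle actin-binding protein, was higher in podocytes, at 10.7 and 14.9 CPM in endothelium and 286 and 199.9 CPM in podocytes (log2 fold change −4.24, SE 0.44, edgeR adjusted p 0.00019). Rgs5, a pericyte gene, stood at 0.988 and 1.23 CPM in endothelium and 2.01 and 3.27 CPM in podocytes. Ren1, renin, came almost wholly from podocyte replicate 3, with 0.3799 and 2.24 CPM in endothelium and 1.81 and 104 CPM in podocytes, and did not pass (without podocyte replicate 3 the log2 fold change was −0.46, against −5.31). Immune genes were low, with a sum over 6 genes of 62.5 and 30.2 CPM in endothelium and 97.9 and 85.9 CPM in podocytes. Csf1r, the receptor of macrophage colony-stimulating factor, was the 1 call among these 6, where 8.99% of all genes were called. It had 8.74 and 4.99 CPM in endothelium and 74.5 and 67.9 CPM in podocytes, most of the podocyte sums. The median log2 fold change of the list was 0.33, on the endothelial side. With only the 4 wild-type libraries, or with the replicate number as a block, 1 immune gene was also called in endothelium. Of 20 genes of the dissociation response 1 passed, a share near the 8.99% of all genes. Fosb, an AP-1 subunit, was that gene, higher in podocytes at 31.99 and 65.1 CPM in endothelium and 184 and 157 CPM in podocytes. Fos itself had 1717 and 2048 CPM in endothelium and 3263 and 3004 CPM in podocytes and did not pass.

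**Figure D4:**
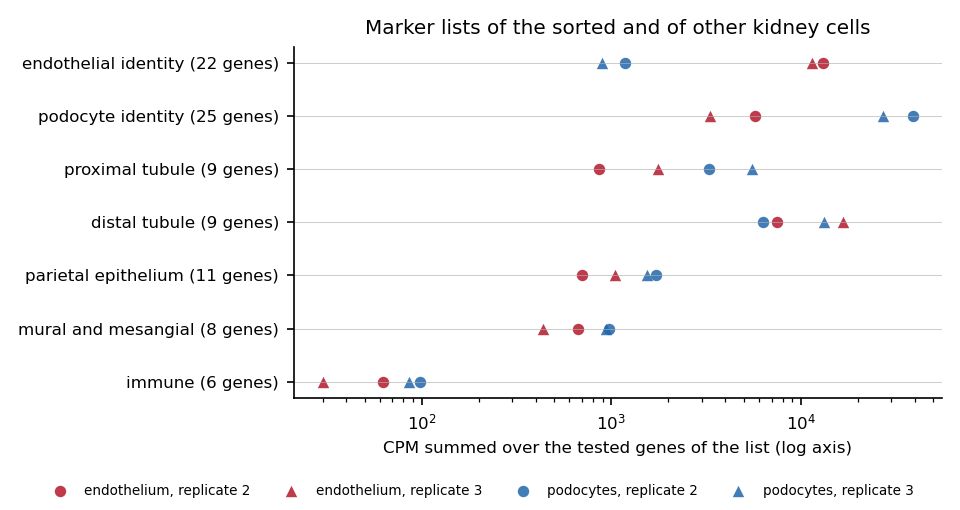
CPM summed over the tested genes of 7 marker lists (log axis) in each wild-type library; red is endothelium, blue podocytes, circles replicate 2 and triangles replicate 3. The endothelial and podocyte lists separate the cell types without overlap, and the distal tubule list orders the libraries by replicate number (6350 and 7490 CPM in replicate 2, 13200 and 16600 in replicate 3), and the immune list stays under 100 CPM.

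The same contrast was computed between knockout endothelium and knockout podocytes. Its group means come from other libraries, but filter, scaling and spread were estimated over all 8, so the calls of both contrasts are not independent. Emcn, the deleted gene, stood at 173 and 179 CPM in knockout endothelium and 5.59 and 4.94 CPM in knockout podocytes. Of the 1481 genes called in wild type, 1477 (99.7%) had the same direction between knockout endothelium and knockout podocytes, where 71.5% of all genes tested did. The 4 exceptions, named here after their values were seen, were Nhlrc4, Trim31, Lpar1 and 7630403G23Rik, whose wild-type calls were fragile. Those of Nhlrc4, Lpar1 and 7630403G23Rik were lost without any 1 of the 4 wild-type libraries, and that of Trim31 without endothelium replicate 2 or either podocyte library. Of the calls, 1171 were also made in the knockout libraries, which is 79.1% of the wild-type calls and 68.5% of the 1709 knockout calls (10.4% of all genes). The difference of the contrast between genotypes was tested by an interaction term in edgeR, where 0 genes passed. Of the 16477 genes tested, 428 had an unadjusted p under 0.05 there, fewer than that threshold passes when no gene differs. Vegfa, for one, had a log2 fold change of −2.71 in knockout, and Kdr had 4.93.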

How the data were processed

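The deposited table held raw gene counts of 8 RNA-seq libraries, made by the authors from polyadenylated RNA of cells sorted from mouse kidney. Build mm10 and the tool DESeq2 are named per the submitters' processing notes, while the aligner, the counting tool, its annotation and its strand setting were not given in the sources used here. Of 22533 gene lines, 5207 (23.11%) held fewer than 8 counts and were not used, because their columns could not be assigned to libraries. Of these lines, 5206 held a comma in the gene description and 1 could not be read. In 3 of the deposited columns these short lines leave empty cells. The remaining 17326 lines gave the counts.

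Low counts were removed with the edgeR filter over the 4 groups, which left 16477 genes. Libraries were scaled by TMM, 1 mean per group was fitted over all 8 libraries, and wild-type endothelium was contrasted with wild-type podocytes by the quasi-likelihood test (edgeR 4.0.16, R 4.3.3). Adjusted p-values are Benjamini-Hochberg values over the tested genes, called under 0.05. SE is that of the log2 fold change, derived from the test statistic. Alternatives used limma 3.58.1 and DESeq2 1.42.0.

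Named genes were the label markers, the 12 called genes of largest fold change in each direction with at least 20 CPM in the higher group, libraries apart and a symbol that is not a clone name, and from each list up to 4 members of smallest p, those called against the list's direction, and members chosen by role after their values were seen. The members and lists were chosen with earlier results of these data known. Of 152 named genes, 70 overlap another RefSeq gene, and reads of overlapping genes cannot be told apart where the strand setting is not given. Promoter windows come from RefSeq (GRCm38.p6). A few list members and the erythroid list are not reported here.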

Additional observations from a re-analysis of the deposited data

How the results depend on the processing

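The number of genes called, 1481, was recomputed under 16 alternatives. Without 1 wild-type library it was 769 to 1085, with 428 to 534 higher in endothelium (702 from all libraries) and 341 to 551 higher in podocytes (779 from all libraries). The low ends came without podocyte replicate 2, and leaving out endothelium replicate 3 gave 922 in all and 402 in podocytes. Part of this fall comes from the fewer libraries fitted. At an adjusted p under 0.01, 893 genes were called, 424 of them higher in podocytes. Other counts stayed within 1.5 times, from 1178 with scaling by library size to 1831 with the replicate number as a block. Of the 1831, 1468 were among the 1481, and the block ended 1 call among the named genes. Over all genes the deviations of same-numbered wild-type libraries correlated at r = −0.1288, although distal tubule genes were higher in replicate 3 for 9 of 9 in both cell types. No label says what a number shares, and the numbers were not taken as pairs. With the numbers crossed, an alternative chosen after seeing the data, 1357 genes were called. Of the named genes, Umod, which was not called, reversed, to −0.06 without endothelium replicate 3, within a range of −0.06 to 1.93 on the log2 scale over the fits that left out 1 library. The median log2 fold change of all genes, −0.01, moved by more than 0.1 under 1 alternative, to 0.11 without podocyte replicate 3. With 2 libraries per group, no difference under 0.71 on the log2 scale was called with all libraries.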
